A study of Oryza sativa Japonica Group with 4 samples.

Results

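The genes described here encode the proteins through which rice cells read calcium: calmodulins (CAM), calmodulin-like proteins (CML), calcineurin B-like proteins (CBL), the CBL-interacting protein kinases (CIPK) and the calcium-dependent protein kinases (CPK, also written CDPK). They were chosen by name, as every gene whose symbol or synonym is one of these family names followed by a number. The choice was made with earlier results of these arrays known, and CIPK14, CML15 and CML20 were named in it beforehand. The annotation held 92 such genes, and 77 of them had a probe set assigned to no other gene, out of 17905 genes measured in this way. These 77 were 3 CAM, 23 CML, 7 CBL, 24 CIPK and 20 CPK genes. The other 15, namely CBL1, CBL7, CIPK3, CIPK9, CIPK13, CIPK15, CIPK27, CIPK33, CML2, CML21, CML22, CPK11, CPK14, CPK25 and CPK28, are not analysed here. For each gene the probe set with the highest mean log2 intensity over the arrays was used.

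RNA came from roots of seedlings of the japonica rice cultivar TNG67 (Oryza sativa) that had germinated for 3 days in darkness and then grown for 2 weeks in a nitrogen-free nutrient solution. At an age of 17 days they spent 30 min in solution with 2.5 mM glutamine (plus glutamine, 2 arrays) or in the same nitrogen-free solution (minus N, 2 arrays), so every sample, controls included, had been starved of nitrogen and moved once. Each group held biological repeats numbered 1 and 2, each measured on its own GeneChip Rice Genome Array, which gives 1 intensity per probe set. The labels do not say whether a repeat pooled several plants.

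Calcium enters the cytosol when a plant cell meets a stimulus, and proteins with EF-hand loops bind it. Calmodulins, CMLs and CBLs are sensors without a kinase domain of their own: calmodulins and CMLs act by binding other proteins, and CBLs bind and activate CIPKs. CPKs carry the calcium-binding domain and the kinase on 1 chain. In roots these kinases are known for acting on ion transporters, and in Arabidopsis CIPK8 and CIPK23 take part in nitrate sensing, with CIPK23 also acting on ammonium transporters.

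All 4 samples carried the root markers matched by name in their whole root RNA. These were the silicon transporter genes Lsi1 and Lsi2 and the iron transporter gene IRT1, whose groups overlapped in 3 of 3 cases. Summed, the root markers had intensities of 8210.0 and 10469.7 in the plus glutamine arrays, against 8114.7 and 10275.8 in the minus N arrays. Of 8 genes of green shoot tissue, 8 overlapped between the groups, but they set the minus N arrays apart. Their summed intensity was 15869.6 and 16677.6 in the plus glutamine arrays, against 12764.6 and 18969.3 in the minus N arrays. The lowest sum was thus that of minus N replicate 1 and the highest that of minus N replicate 2. In each of the 4 arrays the green shoot sum was above the root marker sum, and what that says of the tissue was not tested. Of the 8 genes, 3 (rbcS, rcaA1 and PORB, or 37.5%) were lowest in minus N replicate 1 by over 0.5 log2, against 2.14% of all genes. Intensity of rbcS was 635.6 and 874.8 with glutamine, against 300.2 and 1031.7 in minus N. Among the calcium genes 1 of 77 was lowest in that array by as much. Of 9 seed storage genes, 8 overlapped and GLB1 was higher with glutamine by 0.22 on the log2 scale. The median intensity over 57258 probe sets was 19.7 and 22.2 in the plus glutamine arrays and 19.9 and 21.7 in the minus N arrays, for repeats 1 and 2 in that order. Across these probe sets, arrays of the same number were more alike (r = 0.995 for number 1 and 0.990 for number 2) than arrays of the same treatment (r = 0.983 between the plus glutamine repeats and 0.975 between the minus N repeats). Such coefficients describe probe sets within arrays, and probe sets are no replicates.

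Setting glutamine-fed against minus N roots addresses which transcripts respond within 30 min to an organic nitrogen source. CIPK14 had the largest difference of the 77 genes, 2.47-fold higher with glutamine, followed by the calmodulin-like genes CML15 (2.11-fold), CML31 (1.96-fold), CML14 (1.67-fold) and CML20 (1.62-fold) and the kinase gene CPK4 (1.65-fold). In the other direction the largest differences were those of CBL9, 1.44-fold lower, and CIPK12, 1.42-fold lower. Most of the family differed little, though a smaller share than of all genes. Within 0.25 log2 of no difference lay 52 of the 77 members (67.5%), against 80.9% of all 17905 genes. No member passed limma's moderated test, with treatment as the single term, over all 57258 probe sets, where the lowest adjusted p among members was 1 and 0% of probe sets passed. At an unadjusted p under 0.05, limma gave 4 members, all higher with glutamine (CIPK14, CML20, CML14 and CML15), where 1.49% of all genes were higher and 0.101% lower at that level. Of these, CIPK14, CML15 and CML20 were named when the genes were chosen, so their values are not independent evidence. A member's 95% interval reached to either side of its difference by 0.51 to 1.17 log2, so the number of arrays limits what a missing call can say. In this fit any shift between the replicate numbers also counted as spread within the groups and widened these intervals.

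**Figure D1:**
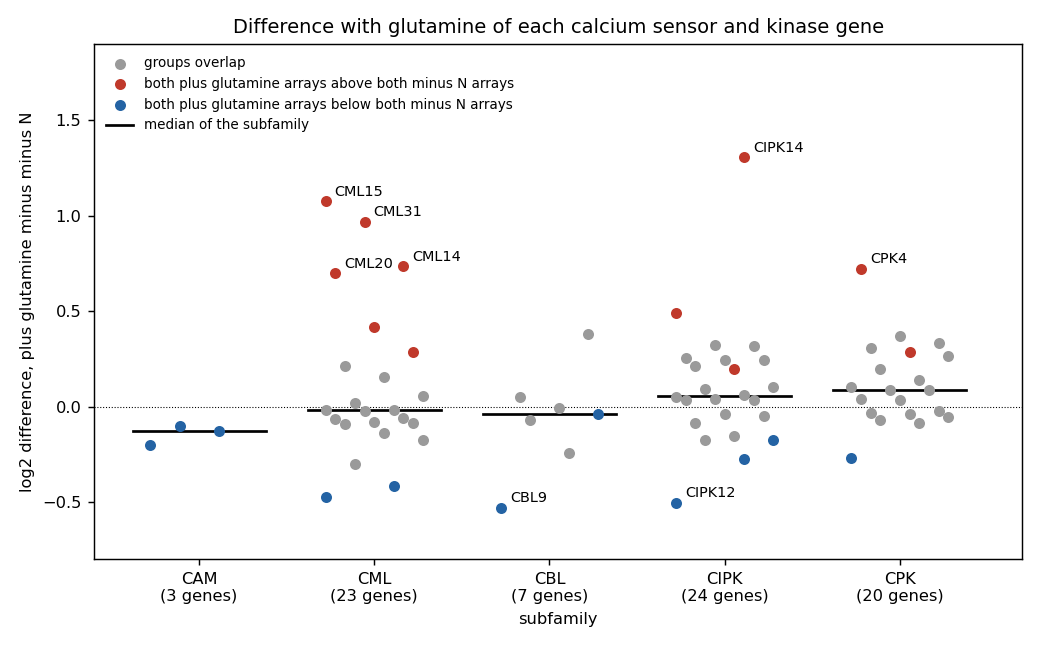
Log2 difference between plus glutamine and minus N roots (y axis, difference of the means of 2 arrays each) for the 77 genes by subfamily (x axis), each point 1 gene, with the subfamily median as a line and colour showing whether the 2 groups of arrays overlap. CIPK14 stands highest at 1.31, 4 named CML genes and CPK4 lie between 0.70 and 1.08, and the subfamily medians lie between -0.13 and 0.09.

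A count without a variance model took members with both plus glutamine arrays above, or both below, both minus N arrays. There were 11 higher and 11 lower among the 77, or 14.3% each way, where 10.1% of all genes with 1 probe set each were higher and 9.03% lower (8.36% and 8.22% of all probe sets). The shares of the members are thus near those of all genes. The split depended on scaling: with each array centred on its median there were 13 higher and 8 lower (10.5% and 10.4% of all genes), and after quantile normalization 15 higher and 10 lower (10.1% and 11.2% of all genes). Under all 3 scalings 10 members were higher and 6 lower. CIPK23, CPK13 and CPK18 were higher, and CML16 and CIPK19 lower, without overlap under both other scalings but not as deposited, and CIPK21 and CPK24 were higher and CBL10 lower after quantile normalization alone. With a log2 difference of at least 0.5 besides, 6 members (7.79%) were higher and 2 were lower, against 2.84% and 0.491% of all genes. Since the members were taken up with earlier results of these arrays known, these counts are descriptions and were not tested.

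**Figure D2:**
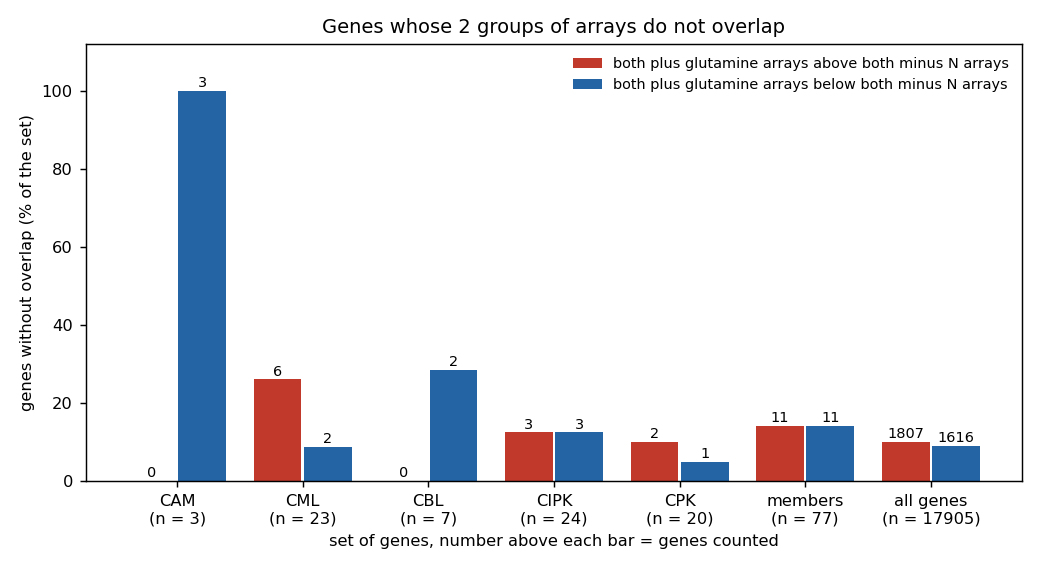
Share of genes (y axis, % of the set, from 0) whose plus glutamine arrays both lie above (red) or both below (blue) the minus N arrays, for the 5 subfamilies, all 77 members and all 17905 genes, with the number of genes above each bar. CML genes have 6 higher and 2 lower of 23, all 3 CAM genes are lower, and CIPK genes have 3 each way.

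Among the sensors, the calmodulins come first. Calmodulin is the general calcium sensor of the eukaryotic cell, and plant genomes hold several genes for almost the same protein. CAM1 (LOC4324384) had intensities of 4635.8 and 4721.5 in the plus glutamine arrays, against 5260.7 and 4966.9 in the minus N arrays. CAM2 (LOC4339172) had 3103.8 and 2785.9 in plus glutamine, against 3196.2 and 3121.7 in minus N. CAM3 (LOC4326903) had 5753.1 and 4922.0 in plus glutamine, against 5884.4 and 6339.5 in minus N. In all 3 genes both plus glutamine arrays lay below both minus N arrays as deposited, but the distances were small, at log2 differences of -0.13 for CAM1 (95% interval -0.65 to 0.39), -0.10 for CAM2 (-0.63 to 0.42) and -0.20 for CAM3 (-0.75 to 0.35). After median centring the groups of CAM1 and CAM2 overlapped, and after quantile normalization those of CAM2, while the differences kept their sign. Whether the 3 probe sets also read each other's transcripts was not tested.

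The CML genes encode proteins that resemble calmodulin but bind their own partners, and many of them are known in plants as genes that respond quickly to stress. They held the most members higher without overlap, 6 of 23 (26.1%, against 10.1% of all genes), and 2 lower (8.70%, against 9.03%). Their median difference was -0.02, against 0.06 for CIPK and 0.09 for CPK genes and -0.01 for all genes. That order of the medians turned with 1 array left out: without minus N replicate 1 they were 0.08 for CML, -0.03 for CIPK and -0.02 for CPK genes. Leaving out plus glutamine replicate 2 gave 0.10 for CML, -0.08 for CIPK and 0.01 for CPK genes. CML20 (LOC4330639) had intensities of 127.7 and 111.9 in the plus glutamine arrays, against 72.4 and 74.9 in the minus N arrays. Both minus N repeats lay close together and clearly below both plus glutamine repeats, and the log2 difference was 0.70 (SE 0.21; limma unadjusted p = 0.020, adjusted p = 1). It ranged from 0.60 to 0.79 when any 1 array was left out. CML20, like CML15 and CIPK14, was named when the genes were chosen, so its value is not independent evidence.

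CML15, CML31 and CML14 shared another pattern, with the minus N repeat 2 as the lowest array. CML15 (LOC4338633) had 375.7 and 437.6 in plus glutamine, against 276.3 and 133.9 in minus N. CML31 (LOC4325408) had 1921.0 and 2104.4 in plus glutamine, against 1634.9 and 644.9 in minus N. CML14 (LOC4339701) had 649.5 and 670.9 in plus glutamine, against 470.1 and 334.2 in minus N. In each of the 3 the plus glutamine repeats lay within 0.25 log2 of each other, and the minus N repeats were further apart. The log2 differences were 1.08 for CML15 (SE 0.39; 95% interval 0.10 to 2.05), 0.97 for CML31 (SE 0.46; -0.19 to 2.13) and 0.74 for CML14 (SE 0.25; 0.10 to 1.38). Without minus N replicate 2 they were 0.55, 0.30 and 0.49. Leaving out minus N replicate 1 instead gave 1.60, 1.64 and 0.98. The sign was thus the same without either minus N array, while the size depended on which one was kept.

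**Figure D3:**
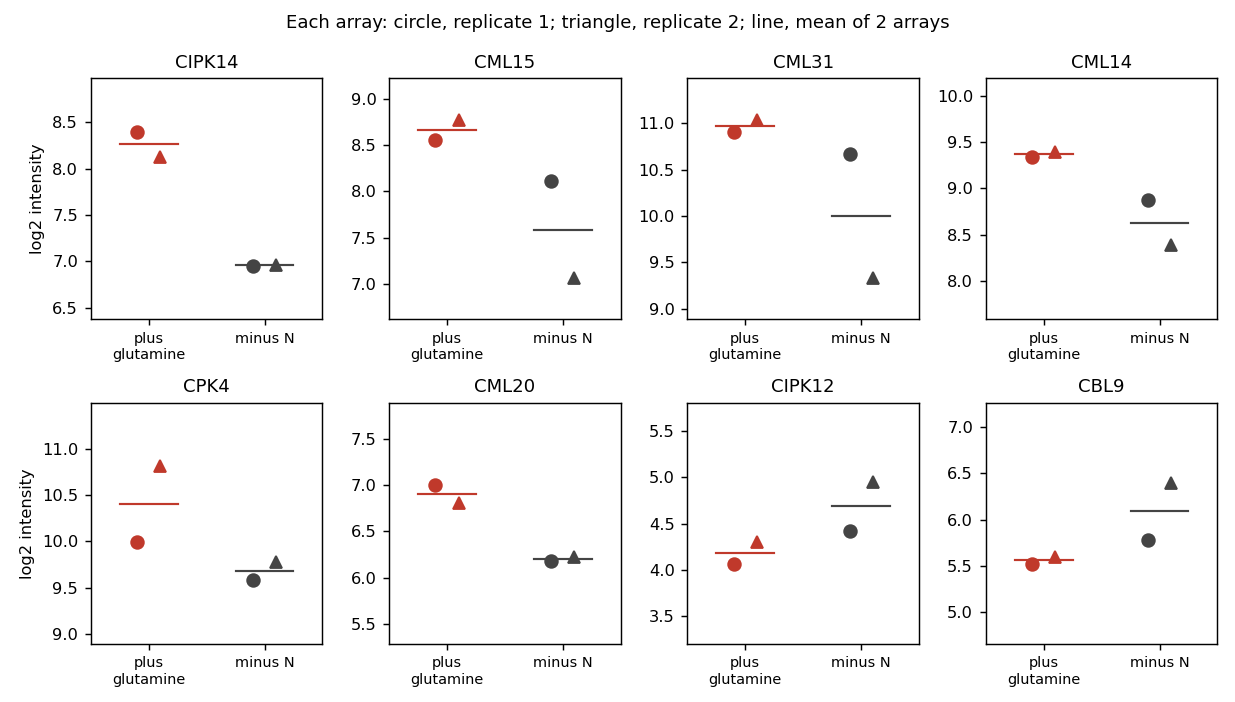
Log2 intensity (y axis, panels of equal range) in plus glutamine and minus N arrays for the 8 members without overlap and at least 0.5 log2 apart, with a circle for repeat 1, a triangle for repeat 2 and a line at the mean of 2 arrays. The minus N repeats of CIPK14 and CML20 coincide, while those of CML15 and CML31 lie 1.05 and 1.34 log2 apart.

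Members without overlap that differed by less than 0.5 log2 are named here partly after their values were seen. CML5, which the gene table also lists as OsCAM-2, had 318.1 and 326.9 in plus glutamine, against 235.0 and 248.9 in minus N. Its groups were tight and apart, with a log2 difference of 0.42 (SE 0.21) that stayed between 0.37 and 0.46 without any 1 array, and its second probe set gave 0.59. CML27 had 5631.1 and 5121.4 in plus glutamine, against 4234.8 and 4570.0 in minus N, a log2 difference of 0.29 (SE 0.21); a second, dimmer probe set gave -0.03. On the lower side, CML8 had 577.2 and 592.1 in plus glutamine, against 729.7 and 831.5 in minus N, a log2 difference of -0.41 (SE 0.21). CML11 had 207.7 and 122.0 in plus glutamine, against 218.2 and 224.7 in minus N, so its difference of -0.48 came mostly from plus glutamine replicate 2 and was -0.09 without that array (-0.86 without plus glutamine replicate 1). The groups of CML11 overlapped after median centring and after quantile normalization.

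The remaining 15 CML genes overlapped between the groups as deposited. Among them CML16 had 1703.5 and 2322.4 in plus glutamine, against 2207.6 and 2728.0 in minus N, a log2 difference of -0.30 (SE 0.26), and was lower without overlap under both other scalings. Of the others, CML4 and CML7 differed by 0.16 (SE 0.22) and -0.02 (SE 0.22). CML28 had 40.4 and 18.8 in plus glutamine, against 34.7 and 22.4 in minus N, so that it followed the replicate number and not the treatment.

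The 7 CBL genes had a median size of difference, whatever its sign, of 0.07 log2, against 0.16 for CML genes and 0.12 for all genes. CBLs carry a calcium signal to CIPKs at membranes. CBL9 (LOC9269084) had 46.0 and 48.4 in plus glutamine, against 54.9 and 84.4 in minus N. Its plus glutamine repeats coincided and the minus N repeats spread above them, with a log2 difference of -0.53 (SE 0.28; 95% interval -1.23 to 0.18). The difference was -0.22 without minus N replicate 2 and -0.84 when minus N replicate 1 was left out. The second probe set of this gene gave -0.37 with overlap, and 0.35 without minus N replicate 2. Both probe sets have names ending in _x_at, and whether they also read other transcripts was not tested. CBL5, whose synonyms also include CBL2, had 157.7 and 261.9 in plus glutamine, against 126.9 and 192.4 in minus N. Its groups overlapped, at a log2 difference of 0.38 (SE 0.35), and in both groups repeat 2 was the higher array. CBL6, CBL3 and CBL2 had differences of -0.04, -0.07 and -0.01, the first of them without overlap at a distance of 1.03-fold between means and with overlap after either other scaling. CBL4, a partner of CIPK24 in the export of sodium, and CBL10 differed by 0.05 (SE 0.22) and -0.24 (SE 0.26).

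Of the kinases, 29 of 44 genes had a positive difference, against 12 of 33 sensor genes and 46.8% of all genes. These shares describe signs of mostly small values: 30 of the 44 kinase genes and 22 of the 33 sensor genes lay within 0.25 log2 of no difference. The kinases' median also moved with single arrays, from 0.07 with all arrays to -0.03 without minus N replicate 1 and -0.05 without plus glutamine replicate 2, where that of all genes was -0.01, -0.13 and -0.09.

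CIPKs are kinases of the SnRK3 group that become active on binding a CBL. CIPK14 (LOC4351307), a kinase known in cultured rice cells for responses to microbial elicitors, had 336.9 and 279.7 in plus glutamine, against 123.8 and 124.6 in minus N. The minus N repeats were nearly identical and both plus glutamine repeats lay above 2 times their level. The log2 difference was 1.31 (SE 0.22; 95% interval 0.75 to 1.86; limma unadjusted p = 0.0015, adjusted p = 1), and it ranged from 1.17 to 1.44 when any 1 array was left out. CIPK14 was already known as a gene that differed on these arrays, so its value is not independent evidence. Its probe set has a name that marks probes shared by several transcripts, and its close relative CIPK15 is not analysed here, so how far the signal belongs to CIPK14 alone was not tested.

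CIPK12 (LOC4325613), reported in rice for drought tolerance, had 16.7 and 19.8 in plus glutamine, against 21.5 and 30.9 in minus N. These intensities are close to the median of the arrays, and how far they lie above background is not known. The log2 difference was -0.50 (SE 0.27), with -0.24 without minus N replicate 2 and -0.76 when minus N replicate 1 was left out. A second, dimmer probe set of CIPK12 gave -0.21 with overlap. CIPK30 lies next to CIPK12 in the gene table with no protein-coding gene between them, and it differed by 0.24 (SE 0.30), with overlap. In another such pair, CIPK29 and CIPK2 differed by 0.32 (SE 0.25) and 0.20 (SE 0.22). CIPK2 had 3155.3 and 2855.9 in plus glutamine, against 2811.0 and 2431.3 in minus N, a narrow separation that ended under median centring and under quantile normalization.

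CIPK26 had 73.8 and 74.9 in plus glutamine, against 46.5 and 60.4 in minus N. Its plus glutamine repeats coincided above both minus N repeats, at a log2 difference of 0.49 (SE 0.23), with 0.30 without minus N replicate 1. CIPK5 and CIPK25 were lower without overlap, at log2 differences of -0.27 (SE 0.22) and -0.17 (SE 0.21), and the groups of CIPK25 overlapped under either other scaling. CIPK5 is among the 11 members dimmer than the median of all probe sets.

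The kinases best known for ion and nitrogen transport differed little. CIPK23, which acts with CBL1 on the potassium channel AKT1 in rice roots, had 1226.2 and 1389.1 in plus glutamine, against 1177.7 and 1331.2 in minus N. Repeat 2 was the higher array in both groups, and the log2 difference was 0.06 (SE 0.22; 95% interval -0.49 to 0.61). After median centring and after quantile normalization its groups no longer overlapped, at differences of 0.05 and 0.05. CIPK8, whose Arabidopsis counterpart acts in nitrate sensing, differed by -0.05 (SE 0.28), and CIPK24, the kinase of the sodium export pathway also known as SOS2, by -0.04 (SE 0.40). CIPK1 differed by 0.03 (SE 0.29). The 95% intervals of CIPK8, CIPK24 and CIPK1 hold differences of 0.5 log2 in either direction, and that of CIPK23 holds such a difference upward but not downward.

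CPKs bind calcium and phosphorylate targets in the same protein. CPK4 (LOC4328155), reported in rice for tolerance of salt and drought, had 1021.0 and 1793.4 in plus glutamine, against 764.9 and 878.0 in minus N. The plus glutamine repeat 2 was the highest array, and the separation of the groups held with either repeat. The log2 difference was 0.72 (SE 0.33; 95% interval -0.10 to 1.55), with 0.32 without plus glutamine replicate 2 and 1.13 without plus glutamine replicate 1. CPK13, the kinase of cold and salt responses first named CDPK7, had 2157.8 and 3146.9 in plus glutamine, against 2031.1 and 2186.9 in minus N. Its groups overlapped as deposited, at a log2 difference of 0.31 (SE 0.26), but not under median centring or quantile normalization, and its second probe set gave 0.51 without overlap. As in CPK4, plus glutamine repeat 2 stood highest, and the difference was 0.03 without that array and 0.58 without plus glutamine replicate 1.

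CPK5 had 556.4 and 628.8 in plus glutamine, against 456.8 and 515.7 in minus N, a log2 difference of 0.29 (SE 0.22) without overlap. CPK17 was the single CPK gene lower without overlap. It had 353.4 and 398.5 in plus glutamine, against 408.6 and 501.9 in minus N, a log2 difference of -0.27 (SE 0.23) that was -0.12 without minus N replicate 2 and -0.42 when minus N replicate 1 was left out. The other 17 CPK genes overlapped. Among them CPK19 differed by -0.03 (SE 0.32), CPK1 by -0.06 (SE 0.30), CPK18 by 0.09 (SE 0.22) and CPK20 by 0.33 (SE 0.30). The dim probe sets of CPK12 and CPK22 followed the replicate number: CPK12 had 9.1 and 17.8 in plus glutamine, against 7.1 and 13.7 in minus N, and CPK22 had 10.1 and 5.3, against 10.6 and 5.7.

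**Figure D4:**
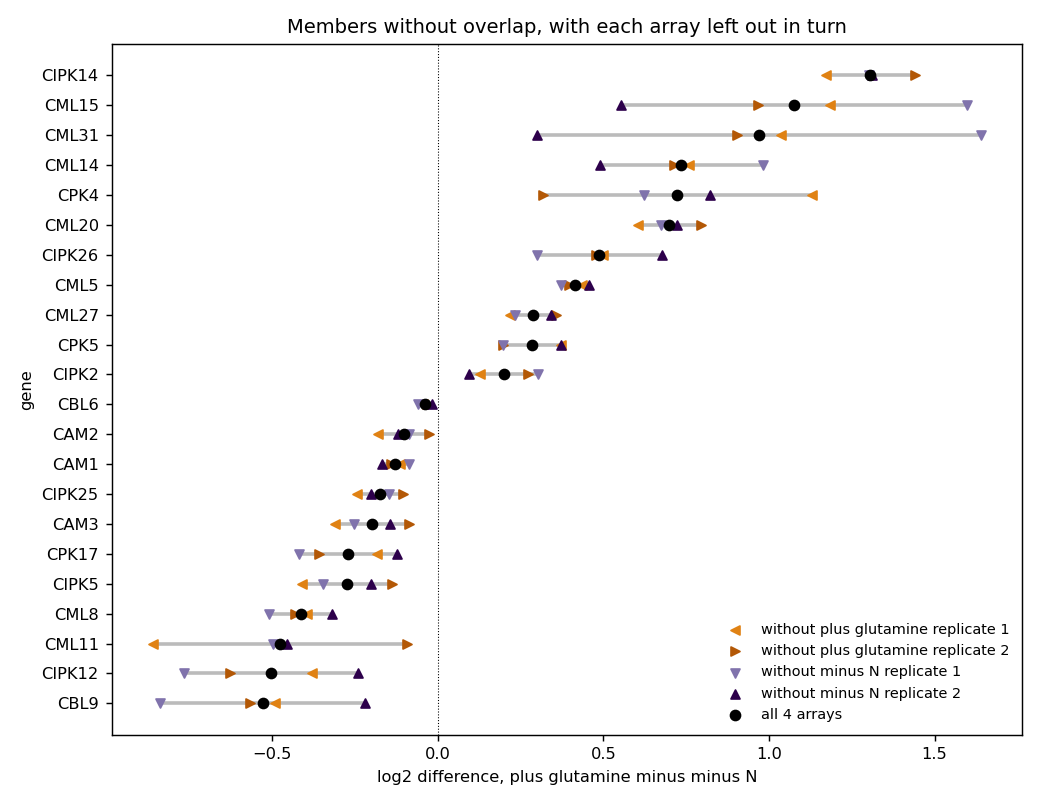
Log2 difference, plus glutamine minus minus N (x axis), for the 22 members without overlap (y axis), with all 4 arrays (black) and with each array left out in turn (triangles), a grey bar joining the lowest and highest. CIPK14 and CML20 keep a narrow range, at 1.17 to 1.44 and 0.60 to 0.79, while CML31 runs from 0.30 to 1.64.

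The subfamilies also differed in how they followed the replicate number. Over all genes the arrays numbered 2 were higher than those numbered 1 by a median of 0.20 log2 (mean of both groups), with 69.6% of genes higher in number 2. CPK genes had a median of 0.32, with 15 of 20 higher in number 2, CIPK genes one of 0.23 with 15 of 24, and CBL genes one of 0.17 with 6 of 7. CML genes had a median of -0.11, with 7 of 23 higher in number 2, and the 3 CAM genes were all lower there (median -0.06). The largest shifts were those of CPK12 at 0.96, CPK22 at -0.91 and CML28 at -0.87. These are descriptions of 2 arrays against 2, and what separates the numbers is not given in the labels.

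**Figure D5:**
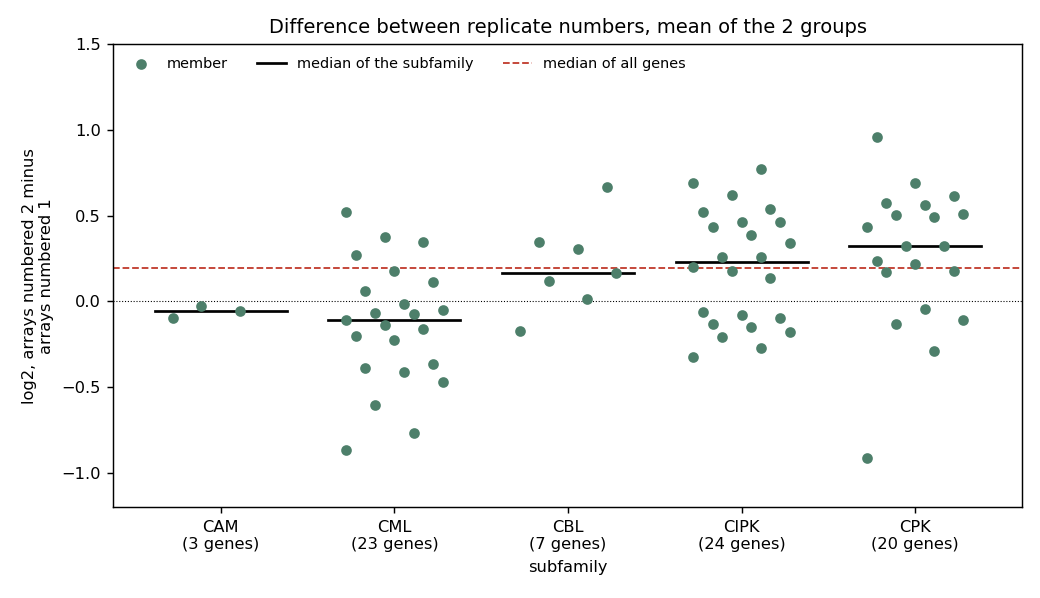
Log2 difference between the arrays numbered 2 and those numbered 1, averaged over the 2 groups (y axis), for each member by subfamily (x axis), with subfamily medians as black lines and the median of all 17905 genes as a dashed line at 0.20. CML genes centre at -0.11 and CPK genes at 0.32.

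Several members had more than 1 probe set, which allowed a comparison of their values. Of 15 such genes, 11 had all their probe sets within 0.25 log2 of each other in the difference, and 7 had the same sign throughout. The same sign held for CML5, CML4, CBL9, CIPK12, CIPK2, CPK13 and CIPK23, the last with both probe sets near no difference. The groups overlapped in the second probe sets of CBL9 and CIPK12 and in the dimmer ones of CIPK2. In CBL9 and CIPK12 the difference of the second probe set turned positive with 1 array left out. The 4 probe sets of CIPK10 ran from -0.19 to 0.09. CIPK14, CML15, CML31, CML14, CML20 and CPK4 had 1 probe set each, so this comparison did not cover them.

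Other genes of calcium signalling were pumps, exchangers, channels, a calcium- and calmodulin-dependent kinase and a respiratory burst oxidase, chosen by family name. Of 13 with a probe set, 2 were higher (15.4%, against 10.1% of all genes) and 1 was lower (7.69%, against 9.03%) without overlap. Their median difference was 0.05, and 0 passed limma's test (0 also at an unadjusted p under 0.05). Names of the annexins and the calmodulin-binding CAMTA factors matched no gene in the table. ACA7, of the calcium pumps that return calcium from the cytosol, was the single one of 9 pump and exchanger genes higher without overlap, with log2 intensities of 6.04 and 5.93 in plus glutamine, against 5.66 and 5.05 in minus N (difference 0.63, SE 0.28; 0.33 without minus N replicate 2). ACA1 was lower, by a difference of -0.27. CCAMK, the kinase of root symbiosis, differed by 0.24 (SE 0.23) without overlap. The channel genes TPC1 and GLR3.1 and the oxidase gene rbohB overlapped.

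Among 23 transporter genes of the kind that CIPKs act on, 2 were higher without overlap (8.70%, against 10.1% of all genes) and 0 lower (against 9.03%). HAK16, of the HAK potassium transporters, had log2 intensities of 6.90 and 7.20 in plus glutamine, against 6.69 and 5.65 in minus N (difference 0.88, SE 0.39). As in CML15 and CML31, minus N repeat 2 was the lowest array, and the difference was 0.35 without it and 1.40 without minus N replicate 1. AKT1, the channel under CIPK23, differed by 0.32 (SE 0.28) with overlap, and HAK5 and HAK1 by 0.01 (SE 0.21) and 0.13 (SE 0.37). All these genes were measured in whole roots, where a change in the share of a cell type and a change of RNA per cell cannot be told apart.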

How the data were processed

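Root RNA of 4 samples was measured, 2 with glutamine and 2 without nitrogen. Per the labels' protocols, biotinylated cRNA was made from 10 ug of phenol-extracted total RNA and hybridised to the GeneChip Rice Genome Array. The authors deposited 1 linear intensity per probe set and array. The submitters' processing notes name GCOS and RMA, while their roles and any scaling are not given in the sources used here. Detection calls did not enter. With 2 arrays per group, their number limits the precision.

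Log2 was taken with no further scaling. In the platform annotation 22436 probe sets carried a single gene, 95 carried several and 34727 had none. Names came from a RefSeq gene table (assembly ASM3414082v1), joined on the gene number, which matched all 22436. A gene with several family names was called by its table symbol, its CML name, its Os-prefixed name or the number it shares with fewest genes, in that order. The 123 control probe sets were left out.

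The groups were set against each other in limma 3.58.1 (R 4.3.3) with lmFit and eBayes, treatment being the single term, two-sided, with Benjamini-Hochberg adjustment over 57258 probe sets and a threshold of 0.05. The fit was run on simulated data with less noise than these arrays and no shift between replicate numbers. That run checked the code and does not measure what the fit can find here. Members named are those without overlap and at least 0.5 log2 apart, the 3 brightest and the extremes of each subfamily and the 3 that differed most between replicate numbers. Others named with their values were chosen after those were seen. Members and lists were chosen with earlier results of these data known. The alternatives were 14 other settings. Figures were drawn with matplotlib 3.10.9.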

Additional observations from a re-analysis of the deposited data

How the results depend on the processing

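Of 14 alternatives 13 refitted limma, which called 0 members and 0 probe sets except with the replicate block and a trended and robust prior together, which called 24 probe sets and 1 member, CIPK14 (limma adjusted p = 0.049, against 0.80 to 1 as the lowest adjusted p of any member under the others). With the replicate block alone 0 members were called, and CIPK14 had the lowest adjusted p of the members with it, 0.80. The deviations of same-numbered arrays from their group means correlated at r = 0.67 over all probe sets, but with 2 pairs and no statement in the labels the numbers were not taken to pair the samples.

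With a difference of at least 0.32 log2 besides no overlap, 8 members (10.4%) were higher and 4 (5.19%) lower, against 5.13% and 2.07% of all genes. With 1 array left out, which leaves fewer values to overlap, 17 to 37 were higher (22.1% to 48.1%, against 19.6% to 42.7% of all genes) and 15 to 27 lower (19.5% to 35.1%, against 19.4% to 44.8%). In those fits the median difference ran from -0.18 to -0.086 for CAM, -0.018 to 0.098 for CML, -0.060 to 0.026 for CBL, -0.083 to 0.16 for CIPK and -0.016 to 0.21 for CPK genes. The sign turned, at adjusted p = 1, for CIPK1 (-0.24 to 0.31), CIPK23 (-0.030 to 0.15), CML28 (-0.57 to 0.54), CML7 (-0.14 to 0.095), CPK12 (-0.12 to 0.85), CPK22 (-0.55 to 0.38), CPK19 (-0.36 to 0.30), CBL2 (-0.086 to 0.074) and CBL3 (-0.21 to 0.068). The causes were not tested beyond the arrays removed. Of 357 values under alternatives of the members named by the rule given with the processing, these 17 changed sign. Other members given with values were not in this count. Some of them also turned with 1 array left out, among them CIPK24 (-0.49 to 0.42), CIPK8 (-0.30 to 0.20) and CPK1 (-0.33 to 0.22). Leaving out probe sets with names ending in _x_at, _s_at or _a_at removed 13 members, CIPK14 (_a_at) among them. Leaving out probe sets dimmer than the median removed 11.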
